A study of Mus musculus with 4 samples.

Results

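The MYC, MAX and MXD network was examined in mouse splenic B cells by scRNA-Seq. Its members were the genes Myc, Max, Mxd1, Mxd3, Mxd4, Mxi1, Mnt, Mlx and Mga, taken by their symbols, and all 9 were among the 31053 genes counted. The study compared cultured B cells from wild-type mice, with 2 samples in each of 2 groups. Bregs-CpG were purified splenic B cells kept for 3 days with CpG B ODN 1668, a DNA oligonucleotide that activates TLR9. Bregs-TLR had the same culture, with LPS, PMA and ionomycin present for the last 5 hours. CpG exposure was therefore shared by both groups, and the labels do not say whether the 2 samples of a group came from separate mice or cultures. The study names both groups Bregs, for regulatory B cells, but found that only Bregs-TLR potently suppressed T cell proliferation in vitro.

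Cells carried a library number, 5, 6, 7 or 8, that no label pairs with a sample. The 4 libraries were therefore treated as parts of 1 pooled sample, with no test between Bregs-CpG and Bregs-TLR, and each value below belongs to a library and not to a treatment. The spread between libraries of 1 treatment cannot be given. Of 19920 barcodes, 18534 cells had at least 1000 genes detected and under 10% of unique molecular identifiers (UMIs) from mitochondrial genes. These were 4196, 4714, 5621 and 4003 cells in libraries 5 to 8, with a median of 8752, 8785, 10355 and 10077 UMIs per cell and a median mitochondrial share of 7.22%, 7.18%, 4.61% and 4.65%. Between libraries 29 barcode sequences were shared, each by 2 libraries. The B cell markers Cd79a, Cd79b, Ms4a1, Cd74 and Pax5 were detected in every library, with Cd79a at 3072, 3239, 1057 and 1033 and Cd74 at 6858, 7135, 5915 and 5831 counts per 1000000 UMIs (CPM) in libraries 5 to 8. All 5 were lower in libraries 7 and 8. Ms4a1 had the widest gap, at 1499, 1510.5, 32.0 and 37.0 CPM. Cd79b stood at 2158, 2226, 294 and 307 CPM and Pax5 at 174, 183, 60.8 and 60.3 CPM. The 4 NK cell markers were at 0, the 6 T cell markers summed to at most 0.788 CPM, the 7 myeloid markers to at most 2.98 CPM and the 2 platelet markers to at most 0.0387 CPM. Plasma cell markers (7 genes) summed to 1614, 1779, 389.8 and 339 CPM, of which Mzb1 gave 1441, 1548, 154 and 157, with Tnfrsf17 at 0 in library 8. Derl3 was also lower in libraries 7 and 8, at 20.6, 21.8, 11.5 and 9.83 CPM. Sdc1 (0.201, 0.213, 7.45 and 6.15 CPM) and Xbp1 (84.7, 91.7, 112 and 107 CPM) were higher there. Jchain (36.3, 83.3, 70.9 and 30.1 CPM) and Txndc5 (30.7, 34.5, 33.8 and 29.3 CPM) followed neither direction. Among 4 hemoglobin genes, Hbb-bt stood at 4.57, 4.30, 218 and 285 CPM, while Hba-a1 and Hba-a2 were at 0.

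MYC is a transcription factor that binds the E-box sequence as a heterodimer with MAX and activates genes of ribosome production, nucleotide synthesis and metabolism. MXD1, MXD3, MXD4, MXI1 and MNT compete for MAX and recruit the SIN3 corepressor to the same sites, and MGA joins MAX to a Polycomb-type repressor complex. MLX is a MAX-like partner shared by MNT, some MXD proteins and the glucose-responsive factors MLXIP and MLXIPL. In B cells, activation through the antigen receptor or Toll-like receptors induces Myc before division, whereas several MXD genes are known from resting or differentiating cells.

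The E-box, CACGTG, which reads the same on both strands, is shown here because it is the site that the network's own dimers bind. RefSeq promoter windows on GRCm38.p6, from 250 bases before to 50 after a transcription start, were given for 8 of the 9 members. The motif was in the window of 4 of these, Max, Mxd4, Mnt and Mlx, and in 7.15% of all 32851 windows. The first count is of genes and the second of windows, as Mxi1 had 3 windows, all without the motif. It lay at −219 in Mxd4, −123 in Mnt, −40 in Mlx and −3 in Max, counted from the start site. The 250 bases upstream of Mxd4, the member with the widest range between libraries, are printed whole (chr5:34187711-34187960, minus strand), and 46 bases around the motif are printed for Max (chr12:76962226-76962271, minus strand), Mnt (chr11:74830781-74830826, plus strand) and Mlx (chr11:101087230-101087275, plus strand), each 5′ to 3′ with the E-box in capitals.
Mxd4: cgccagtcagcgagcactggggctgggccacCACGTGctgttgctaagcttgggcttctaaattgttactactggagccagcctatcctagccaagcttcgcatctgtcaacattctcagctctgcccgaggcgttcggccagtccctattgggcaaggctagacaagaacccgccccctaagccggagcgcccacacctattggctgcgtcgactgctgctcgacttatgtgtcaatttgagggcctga
Max: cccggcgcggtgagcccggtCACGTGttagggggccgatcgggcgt
Mnt: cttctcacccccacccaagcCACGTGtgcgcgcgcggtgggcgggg
Mlx: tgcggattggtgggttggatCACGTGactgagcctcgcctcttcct
The E2F site TTTNGCGC, held by 1.38% of all windows, and the cell cycle homology region TTTGAA, held by 17.9%, were searched on both strands and occurred in none of the members' windows, those of Mxd3 included. Only these letters were searched, so other forms of either site may be present, in Mxd3 as well. With these shares and so few windows, finding none does not set the members apart.

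Myc differed most among the members that were higher in libraries 7 and 8. Its level was 15.3 CPM in library 5 (exact Poisson 95% interval 14.2 to 16.5, 688 UMIs), 15.4 in library 6 (14.4 to 16.5, 797 UMIs), 63.8 in library 7 (61.9 to 65.8, 4062 UMIs) and 60.0 in library 8 (57.8 to 62.3, 2741 UMIs). Libraries 5 and 6 could not be told apart, and libraries 7 and 8 were both near 4 times above them. The ratio of library 7 to library 5 was 4.16-fold (log2 2.06, 95% interval 1.94 to 2.18), and that of library 8 to library 6 was 3.89-fold (log2 1.96, 1.84 to 2.07). Such intervals cover counting error only. In each sum over a library, fewer expressing cells and less RNA per cell cannot be told apart. The gene lies at chr15:61985391-61990374 on the plus strand of GRCm38, and no other annotated gene overlaps it.

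The difference was visible in single cells at equal depth. After every cell was thinned to 5000 UMIs, which left out 662 shallower cells (158, 114, 233 and 157 by library), 5.84%, 6.37%, 23.3% and 22.8% of cells in libraries 5 to 8 held a Myc UMI. Without thinning the shares were 11.2%, 12.5%, 37.8% and 37.2%. Cells with 2 Myc UMIs after thinning made up 0.644%, 0.848%, 4.86% and 4.26%, and the highest cell held 6, in library 7. The variance of Myc UMIs per thinned cell was 1.26, 1.36, 1.39 and 1.34 times the mean, against 1.00, 0.996, 1.05 and 1.01 for Max, so Myc UMIs were more unevenly spread over cells than those of its partner. No cell type that should lack Myc was present in numbers that would give a background share from free RNA.

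**Figure D1:**
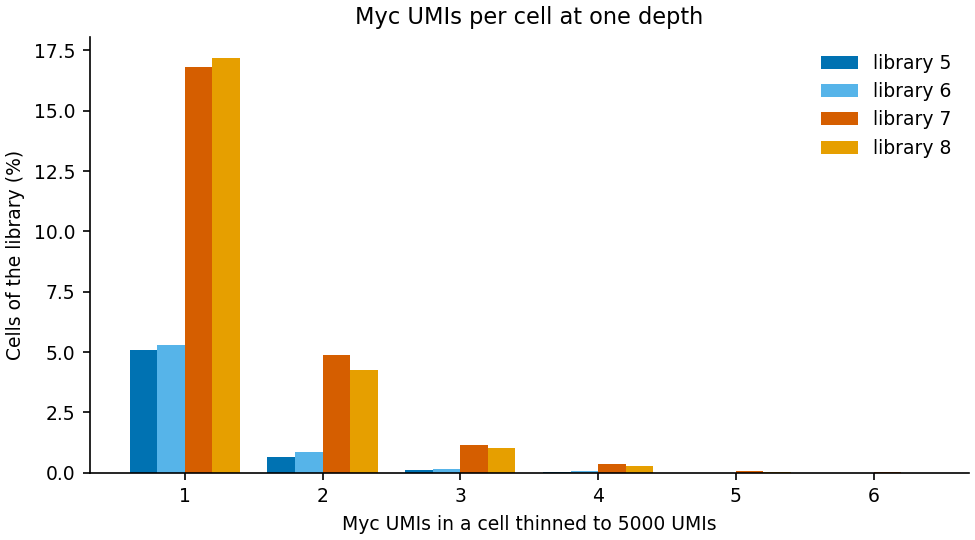
Share of cells (%, y axis) with 1 to 6 Myc UMIs (x axis) in each library after thinning every cell to 5000 UMIs; cells with none are not drawn. Bars of libraries 7 and 8 exceed those of libraries 5 and 6 at each count from 1 to 4, with 1 UMI in 16.8% and 17.2% against 5.08% and 5.30%.

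Max, the partner of MYC and of the MXD proteins, varied least. It stood at 45.0, 46.6, 56.2 and 53.0 CPM in libraries 5 to 8, and its highest library was 1.25-fold its lowest. In thinned cells its UMI was found in 20.5%, 20.7%, 24.0% and 22.9%. All 4 log2 ratios of libraries 7 and 8 over 5 and 6 were positive, from 0.18 to 0.32, and their intervals did not reach 0, though a denominator without mitochondrial, ribosomal protein and immunoglobulin genes brought them to between 0.06 and 0.13.

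Every MXD-type antagonist was lower in libraries 7 and 8. Mxd4 had the widest range of all members, with 48.9, 49.8, 2.67 and 2.50 CPM (2194, 2569, 170 and 114 UMIs). Library 6 was 19.9-fold above library 8, and thinned cells held an Mxd4 UMI in 20.9%, 21.4%, 1.24% and 1.30% of cases. Its E-box-bearing upstream sequence is the one printed above. The gene lies at chr5:34173883-34187720 on the minus strand, where the antisense gene Gm42846 overlaps it.

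Mxd1, an antagonist linked to differentiation, stood at 6.29, 6.35, 1.74 and 1.73 CPM. Mxi1, also called MXD2 in the family's numbering, stood at 11.4, 12.4, 4.57 and 4.34 CPM. Mxd3 was the scarcest member in UMIs, with 192, 252, 61 and 52 UMIs or 4.28, 4.88, 0.959 and 1.14 CPM. For each of the 4 genes the intervals of libraries 5 and 6 lay wholly above those of libraries 7 and 8, and neighbours within each of these pairs overlapped. The log2 ratios of library 7 over library 5 were −4.19 for Mxd4 (95% interval −4.43 to −3.97), −2.16 for Mxd3 (−2.60 to −1.74), −1.85 for Mxd1 (−2.18 to −1.53) and −1.32 for Mxi1 (−1.53 to −1.11).

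Mnt, the broadly expressed antagonist of MYC, differed less, with 14.6, 15.0, 10.6 and 12.1 CPM and a highest library 1.41-fold the lowest. Mga, the scaffold of the MAX-containing Polycomb-type complex, was higher in libraries 7 and 8, with 39.2, 44.5, 64.1 and 61.9 CPM. It was also 0.18 higher on the log2 scale in library 6 than in library 5 (0.09 to 0.27), so libraries 5 and 6 were not alike for every member. Mlx stood at 19.1, 20, 34.2 and 31.0 CPM, with library 7 above library 8 by more than counting error (log2 ratio of library 8 over 7 −0.14, −0.24 to −0.05). The median of all genes for that pair, −0.06, lay inside this interval, so the difference is not particular to Mlx. The denominator without mitochondrial, ribosomal protein and immunoglobulin genes gave −0.10 for Mlx.

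**Figure D2:**
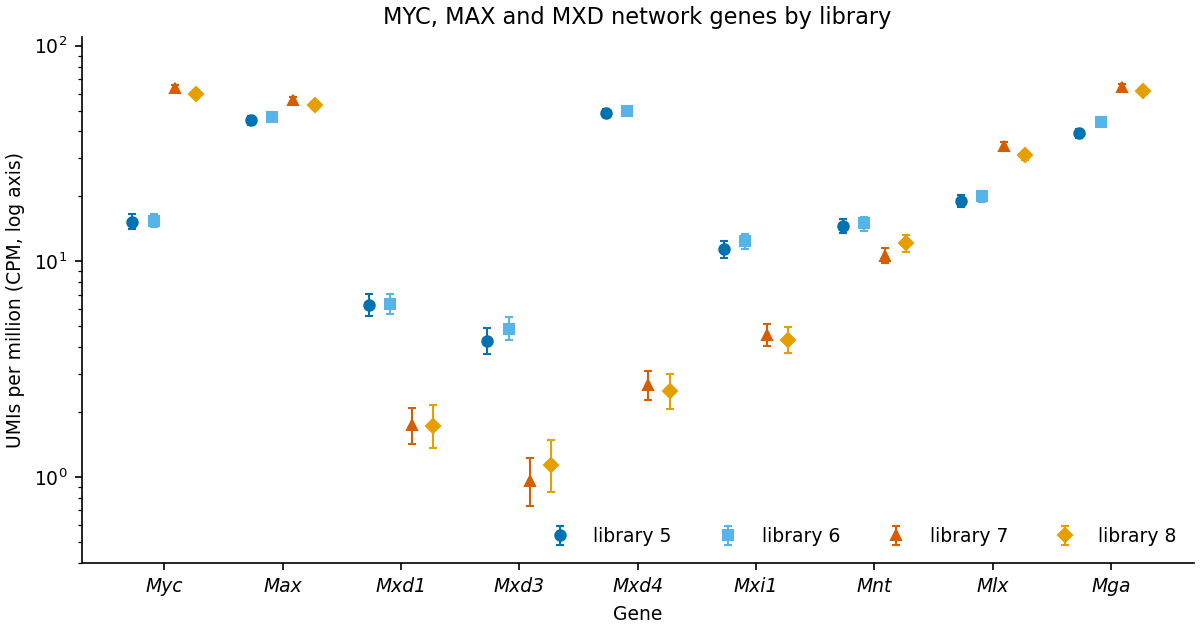
Level of each member (CPM, log y axis) in libraries 5 to 8, with exact Poisson 95% intervals. Myc, Mlx, Mga and Max are higher in libraries 7 and 8, Mxd4 stands at 49.8 CPM in library 6 and 2.50 in library 8, and Mxd1, Mxd3, Mxi1 and Mnt are lower in libraries 7 and 8.

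Taking at least 1.5-fold between the highest and lowest library as a call, 7 of the 9 members passed, all but Max and Mnt. Among all 11174 genes with at least 100 UMIs, 60.1% passed, so the count itself does not set the members apart. Between libraries 6 and 5 no member passed, against 1.14% of genes higher and 0.814% lower, nor did any between libraries 8 and 7, against 1.13% higher and 2.04% lower. Library 7 over library 5 had 3 members higher (Myc, Mlx and Mga) and 4 lower (Mxd1, Mxd3, Mxd4 and Mxi1), against 30.3% of all genes higher and 23.1% lower. Library 8 over library 5 gave the same counts of 3 and 4, against 27.3% and 24.3%. Library 7 over library 6 gave 2 and 4, against 28.6% and 24.1%, and library 8 over library 6 gave 2 and 4, against 25.9% and 25.3%. Mga was under the fold in the last 2 comparisons. These comparisons share libraries. The median log2 ratio of all genes was 0.16, 0.10, 0.12 and 0.06 in the same order, and that of the members was −0.46, −0.27, −0.49 and −0.30. With the denominator that leaves out those 3 kinds of gene, the direction of every member between these libraries was kept, but Mga dropped under 1.5-fold in all 4 (log2 0.52, 0.51, 0.36 and 0.35), Mlx in library 8 over libraries 5 and 6 (0.55 and 0.50), and Mnt passed it in library 7 over libraries 5 and 6 (−0.65 and −0.66). The higher mitochondrial share and lower depth of libraries 5 and 6, their higher B cell markers and the higher Hbb-bt of libraries 7 and 8 move with these differences, and their part in them was not tested.

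Of the MYC paralogs and MLX partners, Mycn had 0 UMIs in 205790408, Mycl 1 and Mlxipl 4. Mlxip, the MLX partner that responds to glucose, was lower in libraries 7 and 8, with 29.0, 31.4, 12.2 and 13.4 CPM, in the opposite direction to Mlx. Among 10 genes listed as MYC coactivators, 7 were at least 1.5-fold higher in library 7 over library 5 and again over library 6 (30.3% and 28.6% of all genes), and none was lower. In library 8 there were 5 over library 5 and 6 over library 6 (27.3% and 25.9% of all genes). Zbtb17, among the 7 in library 7 (log2 0.73 and 0.92), encodes a partner of MYC in repression and not a coactivator. With the other denominator the counts were 4 or 5, where 21.4% to 22.6% of all genes were higher. Their median log2 ratio was 0.81, 0.67, 0.83 and 0.68 in library 7 over 5, 8 over 5, 7 over 6 and 8 over 6. Ruvbl1, an ATPase of the TIP60 complex, stood at 54.0, 53.9, 171 and 162 CPM. The p400 ATPase Ep400 differed less, with 45.5, 45.0, 61.6 and 59.2 CPM.

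Genes of the SIN3 corepressor complex, which MXD proteins recruit, were next. Of 8 genes, 4 were higher in library 7 than in library 5 or 6 and 3 in library 8, with none lower. Their medians were 0.56, 0.31, 0.53 and 0.31 in the order used above. From 25.9% to 30.3% of all genes were higher in these comparisons, so the counts in library 8 were near that background. The other denominator gave 3 in library 7 and 2 in library 8, the latter again near the background of 21.4% to 22.6% of all genes. Ncor1 stood at 166, 172, 166 and 162 CPM, Sin3b at 107, 110.3, 184 and 169 and Sap18 at 78.1, 76.0, 131 and 101. Partners of MGA in its repressor complex had 4 of 8 higher and none lower in each of the 4 comparisons, with medians of 0.64, 0.63, 0.61 and 0.60, against the same 25.9% to 30.3% of all genes higher. With the other denominator 3 were higher, or 4 in library 8 over library 5, against 21.4% to 22.6% of all genes. Cbx3 was level, with 89.3, 86.0, 91.6 and 93.8 CPM, whereas Tfdp1, an E2F dimer partner, stood at 27.6, 29.4, 82.1 and 76.2 CPM, and Yaf2 at 26.5, 27.2, 33.1 and 31.7 CPM.

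Of 8 genes that set the stability or phosphorylation of MYC protein, 3 were higher and none lower in each comparison, with medians of 0.45, 0.41, 0.34 and 0.28, a count near the 25.9% to 30.3% of all genes. With the other denominator 2 were higher in library 8 over library 5, against 21.7% of all genes. Gsk3b, the kinase that primes MYC for degradation, passed as lower over library 6 there (−0.67 and −0.66), as did 29.0% of all genes. The 3 genes that were higher with all UMIs as denominator included Pim1, a kinase of MYC, with 179, 196, 414 and 404 CPM. They also included the ubiquitin ligase Huwe1, with 71.7, 71.4, 126 and 117 CPM. Fbxw7, the ubiquitin ligase that marks phosphorylated MYC, had 22.3, 25.3, 32.7 and 28.3 CPM, under the fold in each.

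The listed genes known to be induced by MYC were higher in libraries 7 and 8 without exception. This list, like the others, was chosen with earlier results of these data known, so its counts are descriptions. All 30 of 30 were at least 1.5-fold higher in each of the 4 comparisons, where between 25.9% and 30.3% of all genes were. Their median log2 ratio was 2.10, 2.04, 2.14 and 2.08, against 0.06 to 0.16 over all genes. Between libraries 6 and 5 none passed in either direction, and between libraries 8 and 7 only Nme2 did, lower by 0.73 on the log2 scale; reads of Nme2 can be shared with its closely related neighbour Nme1. The 3 with the highest level were Npm1, a nucleolar chaperone, with 1284, 1304, 4624 and 4406 CPM, Ncl, the nucleolin gene, with 545, 532, 2736 and 2793 CPM, and the mitochondrial chaperone Hspd1 with 209.6, 201, 1159 and 1059 CPM. Counts of Npm1 may be affected by its processed copies elsewhere in the genome. The widest gap belonged to Odc1, the first enzyme of polyamine synthesis and a classic E-box target, with 39.6, 40.9, 331 and 323 CPM, a gene named after its values were seen. Most of these genes serve growth and ribosome production and are known to respond to other regulators as well. With the other denominator all 30 still passed in each comparison, with medians of 1.90, 1.89, 1.97 and 1.95, where 21.4% to 22.6% of all genes were higher.

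Genes known to be repressed by MYC were mixed. Of 8, 5 were lower (Cdkn1b, Cdkn2b, Cdkn2c, Gadd45a and Ccng2) and 2 higher (Cdkn1a and Ndrg1) in each comparison, with medians of −1.33, −1.33, −1.40 and −1.40. Of all genes 23.1% to 25.3% were lower and 25.9% to 30.3% higher. Cdkn1b, the p27 cell cycle inhibitor, stood at 77.3, 80.7, 26.4 and 25.4 CPM. Cdkn2c, the p18 inhibitor, stood at 26.4, 27.0, 2.95 and 3.15 CPM. Cdkn1a, the p21 inhibitor, ran the other way, with 8.03, 7.03, 15.4 and 13.3 CPM. Btg1, an antiproliferative gene abundant in resting lymphocytes, was under the fold with 678, 683, 497 and 518 CPM, but passed as lower in library 7 over libraries 5 and 6 with the other denominator (−0.64 and −0.63). Cdkn1a came to 0.58 in library 8 over library 5 there, just under the fold. Members of the lists past the fold were named after their values were seen, beyond the 3 with the highest level.

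**Figure D3:**
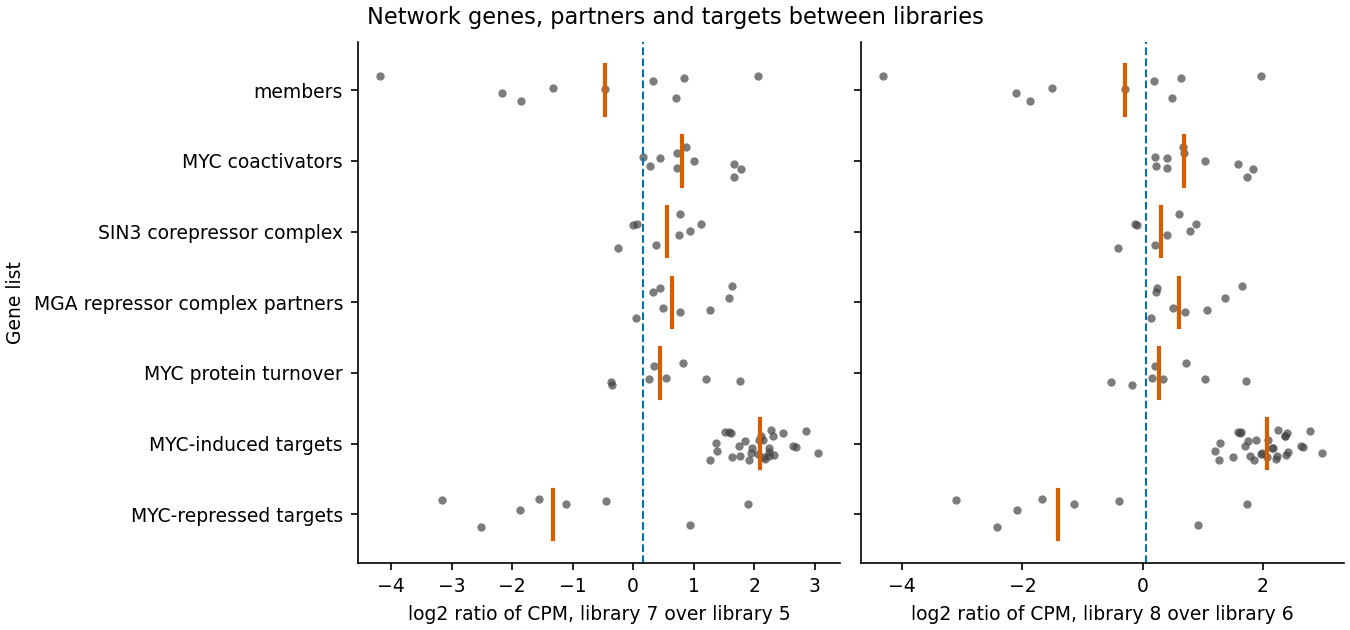
Log2 ratio of CPM (x axis) for each gene (points) of 7 lists (y axis), library 7 over 5 at left and library 8 over 6 at right; orange bars are list medians and the dashed line is the median of all genes. The 30 MYC-induced targets lie to the right of the dashed line in both panels, with medians of 2.10 and 2.08, while the members spread from −4.19 to 2.06 and from −4.32 to 1.96.

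Myc was then compared within each library between cells with and without a UMI of Mki67, a proliferation gene whose RNA peaks toward mitosis. Mki67 was detected in 395, 520, 407 and 316 cells of libraries 5 to 8 (9.41%, 11.0%, 7.24% and 7.89%), of which 122, 155, 121 and 88 had exactly 1 UMI. These cells were deeper, with a median of 16257, 16585, 15707 and 15663 UMIs against 8465, 8502, 10119 and 9862. Myc stood at 17.1 CPM in Mki67-detected cells and 15.0 in the others of library 5 (log2 ratio 0.19, 95% interval −0.10 to 0.46). In library 6 the levels were 13.2 and 16 CPM (−0.27, −0.56 to 0.00). In library 7 they were 49.4 and 65.6 CPM (−0.41, −0.57 to −0.25), and in library 8 they were 40.5 and 62.7 CPM (−0.63, −0.84 to −0.43). Myc was thus lower in Mki67-detected cells of libraries 7 and 8 by more than counting error, though only library 8 passed 1.5-fold, and libraries 5 and 6 did not exclude equality. When cells without the UMI were weighted to the same UMI deciles, all 4 ratios were negative, at −0.12, −0.36, −0.46 and −0.69. With cells thinned to 5000 UMIs before detection, the ratios were 0.22, −0.91, −0.46 and −1.27, so library 6 passed the fold there. Those ratios come from 1 random draw without an interval. They rest on few UMIs, as thinned cells of library 6 held a mean of 0.0772 Myc UMIs. Leaving out the 2% of cells with most UMIs and the Jchain-high cells turned library 5 to −0.34. The sign in library 5 thus differed between settings, and the cause was not tested.

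Detection of Mcm3, a subunit of the replicative helicase whose RNA is highest around DNA replication, was compared in the same way. Mcm3 was detected in 20.9%, 22.2%, 48.8% and 47.0% of cells, with levels of 48.1, 51.8, 144 and 130.0 CPM. The log2 ratio of Myc was 0.40 in library 5 (0.18 to 0.63), 0.02 in library 6 (−0.20 to 0.23), −0.04 in library 7 (−0.13 to 0.05) and −0.03 in library 8 (−0.14 to 0.08). In libraries 6 to 8 no interval reached beyond 0.23 upward or −0.20 downward.

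The 2 markers together gave 4 classes of cells. In library 7 Myc stood at 65.5 CPM in cells with neither UMI, 65.7 with Mcm3 only, 50.7 with both and 33.5 with Mki67 only. In library 8 the levels were 61.2, 64.0, 40.3 and 42.0 CPM in the same order. In library 5 they were 14.2, 17.9, 19.1 and 9.09 CPM, and in library 6 they were 15.8, 16.4, 14.6 and 8.23 CPM. Cells with Mki67 only held few Myc UMIs (14, 17, 18 and 24 by library), in 123, 167, 43 and 45 cells. In libraries 5 to 7 their level was the lowest of the 4 classes, with intervals that reached 15.2, 13.2 and 53.0 CPM. The gap between libraries was kept in each class: Myc in libraries 7 and 8 was above libraries 5 and 6 in cells with neither, either or both UMIs.

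Mxd3, an MXD member known from dividing cells, was found almost only in cells with Mki67. It had 187, 243, 58 and 51 UMIs in them and 5, 9, 3 and 1 UMIs in the far more numerous others, or 24.7, 25.1, 8.38 and 9.38 CPM against 0.134, 0.215, 0.0529 and 0.0249 CPM. The log2 ratios were 7.53 (6.28 to 9.17), 6.87 (5.92 to 8.01), 7.31 (5.69 to 9.63) and 8.56 (6.02 to 13.89), the last resting on a single UMI. Cells with Mcm3 but no Mki67 held 0, 0, 1 and 0 Mxd3 UMIs, and a count of 0 allowed up to 0.368, 0.324 and 0.145 CPM in libraries 5, 6 and 8. Those cells, which share the free RNA of their library, numbered 606, 695, 2377 and 1612. With cells thinned to 5000 UMIs before detection, the log2 ratios by Mki67 were 6.54, 5.28, 5.96 and 7.92.

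Within Mki67-detected cells, Mxd3 was lower in libraries 7 and 8, at 8.38 and 9.38 CPM (intervals 6.36 to 10.8 and 6.98 to 12.3), than in libraries 5 and 6, at 24.7 and 25.1 CPM (21.3 to 28.5 and 22.0 to 28.4). Mki67 itself stood at 58.5, 70.0, 29.1 and 31.4 CPM over all cells of libraries 5 to 8. Detection therefore does not match cells by Mki67 level between libraries. The gene lies at chr13:55325168-55329823 and overlaps Prelid1 on the opposite strand.

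**Figure D4:**
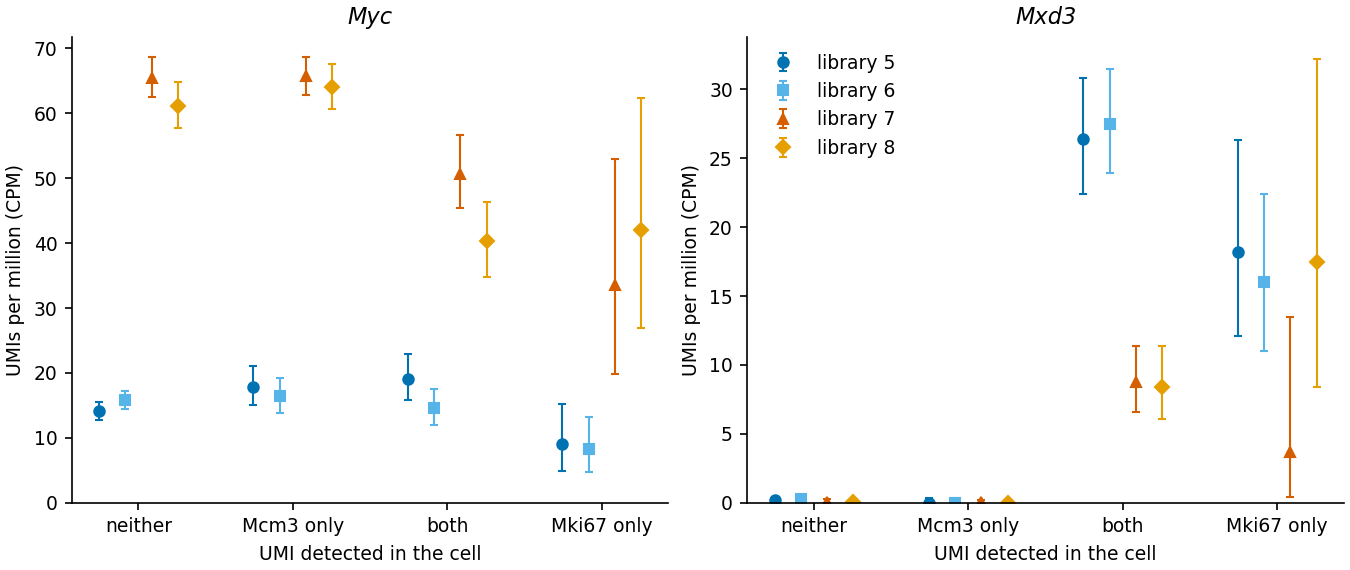
Level (CPM, y axis) of Myc at left and Mxd3 at right in cells with neither UMI, Mcm3 only, both, or Mki67 only (x axis), by library, with exact Poisson 95% intervals. Myc is higher in libraries 7 and 8 in every class, while Mxd3 is near 0 without Mki67 and reaches 26.4 and 27.5 CPM in cells of libraries 5 and 6 with both.

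At 1.5-fold in the same direction in all 4 libraries, Mxd3 alone of 9 members was higher in Mki67-detected cells, where 5.01% of 11172 genes were, and none was lower, where 0.358% were. By Mcm3 detection Mxd3 was again the only one higher (log2 3.38, 3.36, 3.42 and 1.55), where 3.55% of genes were, and none was lower, where 0.0895% were. Thinning to 5000 UMIs gave 2.25, 2.40, 1.62 and 2.11 for Mcm3, and depth weighting gave 0.81 in library 8. Of the 159, 210, 57 and 41 Mxd3 UMIs in Mcm3-detected cells, 159, 210, 56 and 41 lay in cells that also held Mki67.

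Among the other antagonists, Mxd4 was lower in Mki67-detected cells of library 5 (30.8 against 52.6 CPM, log2 −0.77, −0.97 to −0.58) and library 6 (37.0 against 52.7 CPM, −0.51, −0.67 to −0.35). In libraries 7 and 8, with 16 and 15 UMIs in the detected cells, the ratios of −0.23 and 0.16 had intervals that included 0, and at a detection minimum of 2 Mki67 UMIs the ratio of library 8 was −1.34. Within libraries 5 and 6, Mxd4 was lowest in cells with both UMIs, at 26.2 and 32.8 CPM, against 54.2 and 53.4 CPM with neither. Mxi1 went the other way in 2 libraries, with log2 ratios of 0.47 in library 5 (0.15 to 0.77) and 0.72 in library 8 (0.15 to 1.25). Max was lower in Mki67-detected cells of every library with −0.30, −0.26, −0.29 and −0.25, and with −0.04, −0.57, −0.47 and −0.47 in thinned cells. For Mxd1 and Mnt each interval included 0, though Mnt in library 7 went from 0.29 to 1.20 in thinned cells, a random draw without an interval. For Mlx only the interval of library 8 did not include 0 (−0.37, −0.64 to −0.11), and for Mga only that of library 8 did not (0.18, 0.02 to 0.34). By Mcm3 detection Mxd4 was lower in all 4 libraries, with −0.50, −0.33, −0.68 and −0.45. Only the interval of library 8 included 0 (−1.01 to 0.10). Weighting by depth gave −0.50, −0.36, −0.45 and −0.11.

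**Figure D5:**
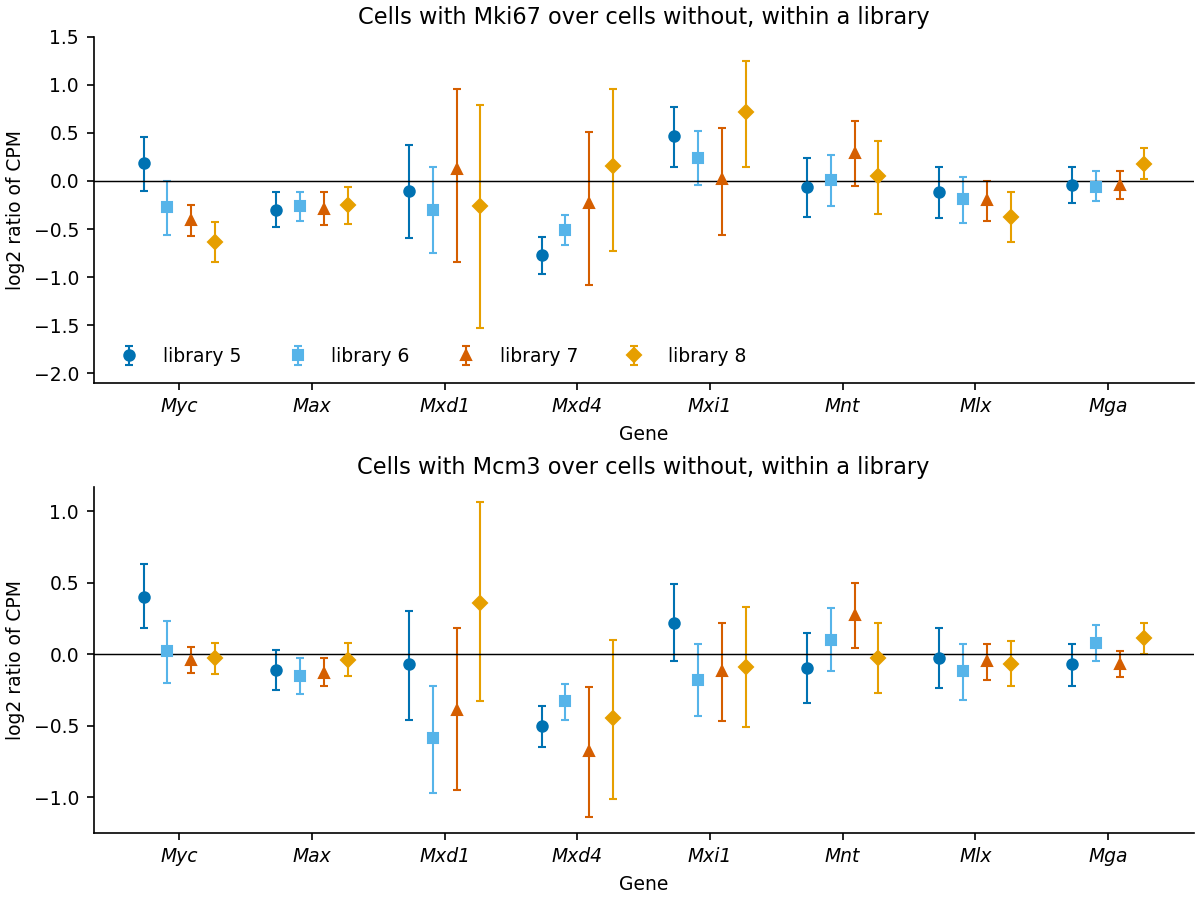
Log2 ratio of CPM (y axis) in cells with over cells without an Mki67 UMI (upper panel) or an Mcm3 UMI (lower panel), within each library, for 8 members (x axis), with exact 95% intervals; Mxd3, at 6.87 to 8.56 for Mki67, is off this scale and not drawn. Max is below 0 in all 4 libraries for Mki67. Mxd4 and its intervals are below 0 in libraries 5 and 6 in both panels, and in library 7 for Mcm3.

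The MYC-induced targets did not follow a single direction by cell cycle marker. Their median log2 ratio by Mki67 was 0.38, 0.35, −0.21 and −0.20 in libraries 5 to 8, against 0.09, 0.08, 0.00 and 0.01 over all genes, and none of 30 passed the fold in all libraries. Ncl had ratios of 0.48, 0.45, −0.24 and −0.26. By Mcm3 the medians were 0.52, 0.53, 0.06 and 0.07. Of the repressed targets, Cdkn1a was higher with Mki67 in all libraries (2.43, 2.14, 1.51 and 1.63). Of the turnover genes, Aurka (3.87, 4.34, 2.84 and 3.33) and Skp2 (1.66, 1.52, 1.29 and 1.43), both known from dividing cells, passed with Mki67 and again with Mcm3, and of the MGA partners Cbx3 passed with Mki67 (1.14, 1.24, 0.72 and 0.67). These 4 genes were named after their values were seen. No gene of the coactivator or SIN3 list passed with either marker. Of all genes, 5.01% were higher by Mki67 in all libraries and 3.55% by Mcm3, with 0.358% and 0.0895% lower. At such shares, the absence of a call in lists of this size does not set them apart.

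Myc was also set against genes by which the study annotated cells, a comparison chosen after values had been seen. In cells with a UMI of Il10, an anti-inflammatory cytokine gene, Myc stood at 29.7 against 13.5 CPM in library 5 (log2 1.13, 0.86 to 1.40), in 314 cells, and at 22.5 against 14.5 CPM in library 6 (0.63, 0.35 to 0.90), in 351 cells. In libraries 7 and 8, where 3950 and 2868 cells held an Il10 UMI, the ratios were 0.11 and 0.07. At matched depth the ratios of libraries 5 to 8 were 0.94, 0.57, 0.13 and −0.03. Cells with Ccl4, a chemokine gene, showed more Myc in every library, with log2 ratios of 1.49 (1.19 to 1.78), 1.05 (0.74 to 1.35), 0.30 (0.20 to 0.39) and 0.37 (0.25 to 0.48), and weighting by depth left 1.28, 1.03, 0.29 and 0.35. In libraries 5 and 6 the same Ccl4-detected cells were lower in Mxd4, at 32.7 against 50.1 and 36.5 against 50.7 CPM. Even there Myc, at 38.4 and 29.9 CPM, was below the 60.3 and 55.6 CPM of cells without Ccl4 in libraries 7 and 8. Cells of libraries 7 and 8 with a UMI of Ms4a1, the CD20 gene, had more Mxd4 than the rest, with 4.25 against 2.16 CPM and 4.38 against 1.89 CPM. Their Myc was lower, with log2 ratios of −0.19 (−0.29 to −0.08) and −0.16 (−0.29 to −0.03). In libraries 5 and 6 the intervals for Myc by Ms4a1 included 0 (−0.57, −1.32 to 0.31, and −0.66, −1.37 to 0.16). Only 75 and 76 cells there lacked an Ms4a1 UMI, with 14 and 16 Myc UMIs. Those wide intervals also held the ratios of libraries 7 and 8, so they do not set the libraries apart.

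Cells with at least 10 UMIs of Jchain, a gene of antibody-secreting cells, numbered 21, 37, 52 and 25. They held 0, 3, 55 and 21 Myc UMIs, or 0, 5.19, 73.8 and 49.8 CPM, where 0 UMIs in library 5 allowed up to 10.7 CPM. Mxd4 was higher in them than in the rest of each library, with 110.1 against 48.5, 113 against 49.0, 14.8 against 2.53 and 30.8 against 2.23 CPM, on 31, 65, 11 and 13 UMIs.

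By co-detection of members in single cells, also chosen after values had been seen, Myc was higher in cells with an Mnt UMI in all 4 libraries (log2 0.56, 0.32, 0.20 and 0.21, and 0.37, 0.33, 0.19 and 0.19 at matched depth). With an Mxd4 UMI the ratios were −0.09, −0.25, −0.22 and −0.34, and the interval excluded 0 in library 6 only. With an Mxd3 UMI they were 0.01, −0.67, −0.48 and −0.71, in 119, 156, 50 and 45 cells. Positive ratios were not particular to Mnt. They were 0.41, 0.20, −0.02 and 0.14 with a Max UMI and 0.27, 0.19, 0.06 and 0.17 with an Mga UMI. With Mlx they were 0.46, −0.14, 0.02 and −0.01, with Mxd1 0.34, −0.46, −0.06 and −0.04, and with Mxi1 −0.01, −0.21, −0.19 and 0.16.

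Over the 16 groups of library by Mki67 and Mcm3 detection, the genes whose log2 CPM was most like that of Myc were Mrps5, a mitochondrial ribosomal protein gene (Pearson r 0.989), Ntmt1, an N-terminal methyltransferase gene (0.987), Hspe1, the partner of the chaperone Hspd1 (0.985), Epop (0.984) and Bud23, a ribosomal RNA methyltransferase gene (0.984), out of 4724 genes with at least 20 CPM. The r of the members with Myc was 0.885 for Mlx, 0.756 for Mga, 0.716 for Max, −0.280 for Mnt, −0.367 for Mxd3, −0.779 for Mxi1, −0.937 for Mxd1 and −0.943 for Mxd4. Among the 4724 genes Mlx ranked 925, Mga 1679, Max 1843 and Mxd4 4592. Mnt, Mxd3, Mxi1 and Mxd1 were under 20 CPM and had no rank. For every r, 1 was added to each CPM before the log2. Groups of 1 library share their library and depth, and the values are descriptions. How much of each r comes from the difference between libraries was not tested. Mxd3 also differed widely by class within a library, with 0.172 CPM with neither UMI and 26.4 CPM with both in library 5. Its groups without Mki67 held few UMIs.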

How the data were processed

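Single-cell libraries had been prepared with the Chromium 3′ v3 kit, about 5000 cells were used for each, and the submitters' processing notes name bcl2fastq, Cell Ranger 3.1.0 and mm10. The deposited matrix, which the authors combined and scaled over libraries with Cell Ranger's aggregation step, holds whole-number UMI counts for 31053 genes in 35989 columns and came with 19920 barcodes, which were placed on the last columns in order. Under this placement the shift in expression at the start of libraries 5 to 8 was at percentile 99.5, 79.6, 100 and 91.1 of all columns. The 16069 columns left over were not used. How Cell Ranger scaled depth between libraries is not given in the sources used here. The imputation and clustering described in the study's methods were not repeated, and no doublet caller was run.

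Cells with at least 1000 genes and under 10% mitochondrial UMIs were kept. Levels are UMIs of a gene per 1000000 UMIs summed over cells (CPM), with exact Poisson intervals. Ratios have exact conditional 95% intervals, and shares are given without a test. A count of 0 was bounded by 3 counts. A call is at least 1.5-fold. With libraries not paired with samples, no p-value was computed. Members, lists and comparisons were chosen with earlier results of these data known. All 9 members are named. Of other lists the 3 genes of highest CPM are named, except a few that are not reported here, and 5 genes most like Myc. Positions are from GENCODE on GRCm38. The intervals were tried only on simulated Poisson counts, the kind of count they assume. That trial cannot show how they hold for counts spread unevenly over cells. Python 3.11.15, NumPy 2.4.6, SciPy 1.17.1, pandas 2.3.3 and Matplotlib 3.10.9 were used.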

Additional observations from a re-analysis of the deposited data

How the results depend on the processing

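No paired analysis was possible because barcodes carry a library number and no sample name. The cause of each change below was not tested. Placing the barcodes on the first columns gave 13235 passing cells instead of 18534 and Myc levels of 63.0, 50.2, 47.0 and 16.7 CPM in libraries 5 to 8, so every value by library rests on the placement. A denominator without mitochondrial, ribosomal protein and immunoglobulin genes, which kept 53.1%, 53.9%, 60.7% and 58.9% of UMIs, moved Myc to 28.9, 28.6, 105 and 102 CPM, and the mean over cells of each cell's CPM was 13.4 in library 5. For Myc by Mki67 detection, leaving out the 2% of cells with most UMIs and Jchain-high cells gave −0.34 in library 5, weighting by depth decile gave −0.12 there, thinning to 5000 UMIs gave −0.91 in library 6 and −1.27 in library 8, and detection at 2 UMIs gave −0.87 in library 8. For Myc by Mcm3 detection, thinning gave −0.33 in library 6. Thinned ratios come from 1 random draw and have no interval. The 7 members past the fold between libraries became 5 at 2-fold, where 35.6% of all genes passed. They were 7 with the other denominator (Mnt in and Mga out), where 58.1% of all genes passed. They were 7 with genes of at least 10 UMIs (67.1% of all genes), and 6 to 7 with 1 library left out (55.2% to 56.8%). The count by Mki67 and by Mcm3 detection was 1 under each alternative, leave-one-out included (1 to 1). Of all genes 3.29% to 6.54% passed by Mki67 and 2.46% to 4.32% by Mcm3 in these alternatives. The 2 MYC-repressed targets that were higher became 1 at 2-fold in library 7 over 5, library 8 over 5 and library 8 over 6. Of all genes 16.1%, 14.5% and 13.7% were higher there. With the other denominator 1 was higher in library 8 over 5, against 21.7% of all genes. Alternatives for the target lists, for ratios between libraries and for members other than Myc were added after the data were seen. Over all results 612 alternative values moved by less than their interval or 1.5 times and 71 moved by more. No ratio that passed the fold changed sign in the settings where ratios were computed. With barcodes on the first columns only Myc levels were computed. There Myc was lower in library 8 than in library 5, at 16.7 against 63.0 CPM, the reverse of the reported direction.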
